A study of Danio rerio with 34 samples.

Results

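The testis genes described here are amh, gsdf, dmrt1, sox9a, wt1a, wt1b, nr5a1a, nr0b1, fshr and ar, which are known for Sertoli cell function and for testis formation. They were chosen by name, and the 10 names matched 12 of the 35117 gene identifiers in the tables of counts. The name table gives the symbol SOX9 to 2 identifiers (ENSDARG00000003293 and ENSDARG00000043923) and the symbol NR5A1 to another 2 (ENSDARG00000023362 and ENSDARG00000103176) without saying which is sox9a or nr5a1a, so all 4 are given by identifier. The other 8 are amh (ENSDARG00000014357), gsdf (ENSDARG00000075301), dmrt1 (ENSDARG00000007349), wt1a (ENSDARG00000031420, written WT1 in the table), wt1b (ENSDARG00000007990), nr0b1 (ENSDARG00000056541), fshr (ENSDARG00000071494) and ar (ENSDARG00000067976). All 12 passed the filter on low counts, which 24053 genes passed in all.

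RNA came from the testis of adult zebrafish in 3 groups of 6 libraries: fish given the carrier DMSO, fish exposed to 3 nM PCB126 and fish exposed to 10 nM PCB126. PCB126 is a polychlorinated biphenyl with dioxin-like action, an agonist of the aryl hydrocarbon receptor. Exposure lasted 24 h, and testes were taken after 7 days in clean water. The series calls the replicates biological, but the sources used here do not state the strain, the age beyond adult or whether testes were pooled.

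Sertoli cells are the somatic cells that enclose and nourish the germ cells of the testis. They answer to follicle-stimulating hormone (FSH) through its receptor and to androgen, and they send ligands of the TGF-beta family, among them anti-Müllerian hormone, to germ cells and Leydig cells. Zebrafish have no Müllerian ducts, and in this species amh is known for restraining the growth of the germ cell population. In vertebrate gonads the transcription factors WT1, NR5A1, SOX9 and DMRT1 build and maintain the male somatic programme, and NR0B1 is known for repressing NR5A1.

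Libraries held from 16.24 to 29.85 M (mega) counts in the DMSO group, with 21.8 to 29.08 M for 3 nM and 18.59 to 26.75 M for 10 nM. Levels are given as CPM, counts per M of the scaled library total, and because CPM is not corrected for gene length, levels are compared between libraries and never between genes. Germ cell and Leydig cell markers were present in DMSO, with means of 1326 CPM for DDX4, 252 CPM for SYCP3 and 320.0 CPM for STAR. NANOS3 had 0 counts in every library, and the oocyte marker zp3b had a mean of 16.2 CPM in DMSO. On principal component 1, which held 39.7% of the variance of all tested genes, 5 exposed libraries stood apart from the other 13: replicates 4 and 6 at 3 nM and replicates 1, 5 and 6 at 10 nM. Mitochondrial genes took 3.80% to 7.22% of counts in those 5, 2.21% to 3.56% in the other 7 exposed libraries and 1.68% to 2.94% in DMSO. The summed level of 14 leukocyte marker identifiers was 350 to 1224 CPM in the libraries apart at 10 nM, but 107 and 111 CPM in those at 3 nM. It was 79.6 to 151 CPM in the other exposed libraries and 90.3 to 123 CPM in DMSO. Oocyte markers summed to 164 to 482 CPM in the 5, 162 to 189 CPM in the other exposed libraries and 139 to 173 CPM in DMSO. The 482 CPM was a single library, 3 nM replicate 4. Liver markers summed to 32.2 to 461, 18.5 to 258 and 10.4 to 108 CPM in that order. Spermatogonia markers summed to 3556 to 4645, 4807 to 6501 and 4466 to 5377 CPM. PIWIL1 and DDX4 weigh most in these sums, with DMSO means of 2576 and 1326 CPM, against 17.2 CPM for SALL4 and 1.76 CPM for GFRA1. At 10 nM, 5 of 13 tested leukocyte markers and 4 of 8 intestine and other epithelium markers were called higher, against 2 and 0 without the 5 libraries. Of 11 meiotic germ cell markers 5 were called lower, against 3 without the 5 libraries. Of 12 peritubular and smooth muscle markers 1 was called higher and 3 lower, against 0 and 0 without the 5 libraries. In the list of spermatid markers 2 of 11 were called lower, spata22 and DNAI1 ENSDARG00000038788, against 1 without the 5 libraries. Leydig cell markers had 1 of 8 called lower, against 0 without the 5 libraries. Spermatogonia markers had 1 of 9 called higher, pou5f3, against 0 without the 5 libraries. Of the 9 log2 fold changes 5 were positive, and SALL4 was lower without passing the test (-0.99, edgeR, adjusted p = 0.0877). Endothelium, red blood cell, liver and oocyte markers had 0 called, and without the 5 libraries 1 oocyte marker was called higher. Over all tested genes 10.8% were called in either direction, and 1.9% without the 5 libraries. The part of these cell types in the results below was not tested. Because whole testes were measured, fewer cells of a type and less RNA per cell cannot be told apart.

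At 10 nM, nr0b1 rose above DMSO, amh was lower without passing the test, and gsdf was higher without passing it. Of the 12 identifiers, 1 rose and 0 fell against DMSO (edgeR's quasi-likelihood test, Benjamini-Hochberg adjusted p under 0.05 over all 24053 genes). In the same comparison 10.8% of all tested genes were called, in either direction. A further reading at an unadjusted p under 0.05 gave 4 of the 12 (nr0b1, amh, SOX9 ENSDARG00000043923 and gsdf) and 33.0% of all tested genes. The median log2 fold change of the 12 was -0.17, and that of all tested genes was 0.06. The count of 1 in 12 was near the share called among all tested genes.

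**Figure D1:**
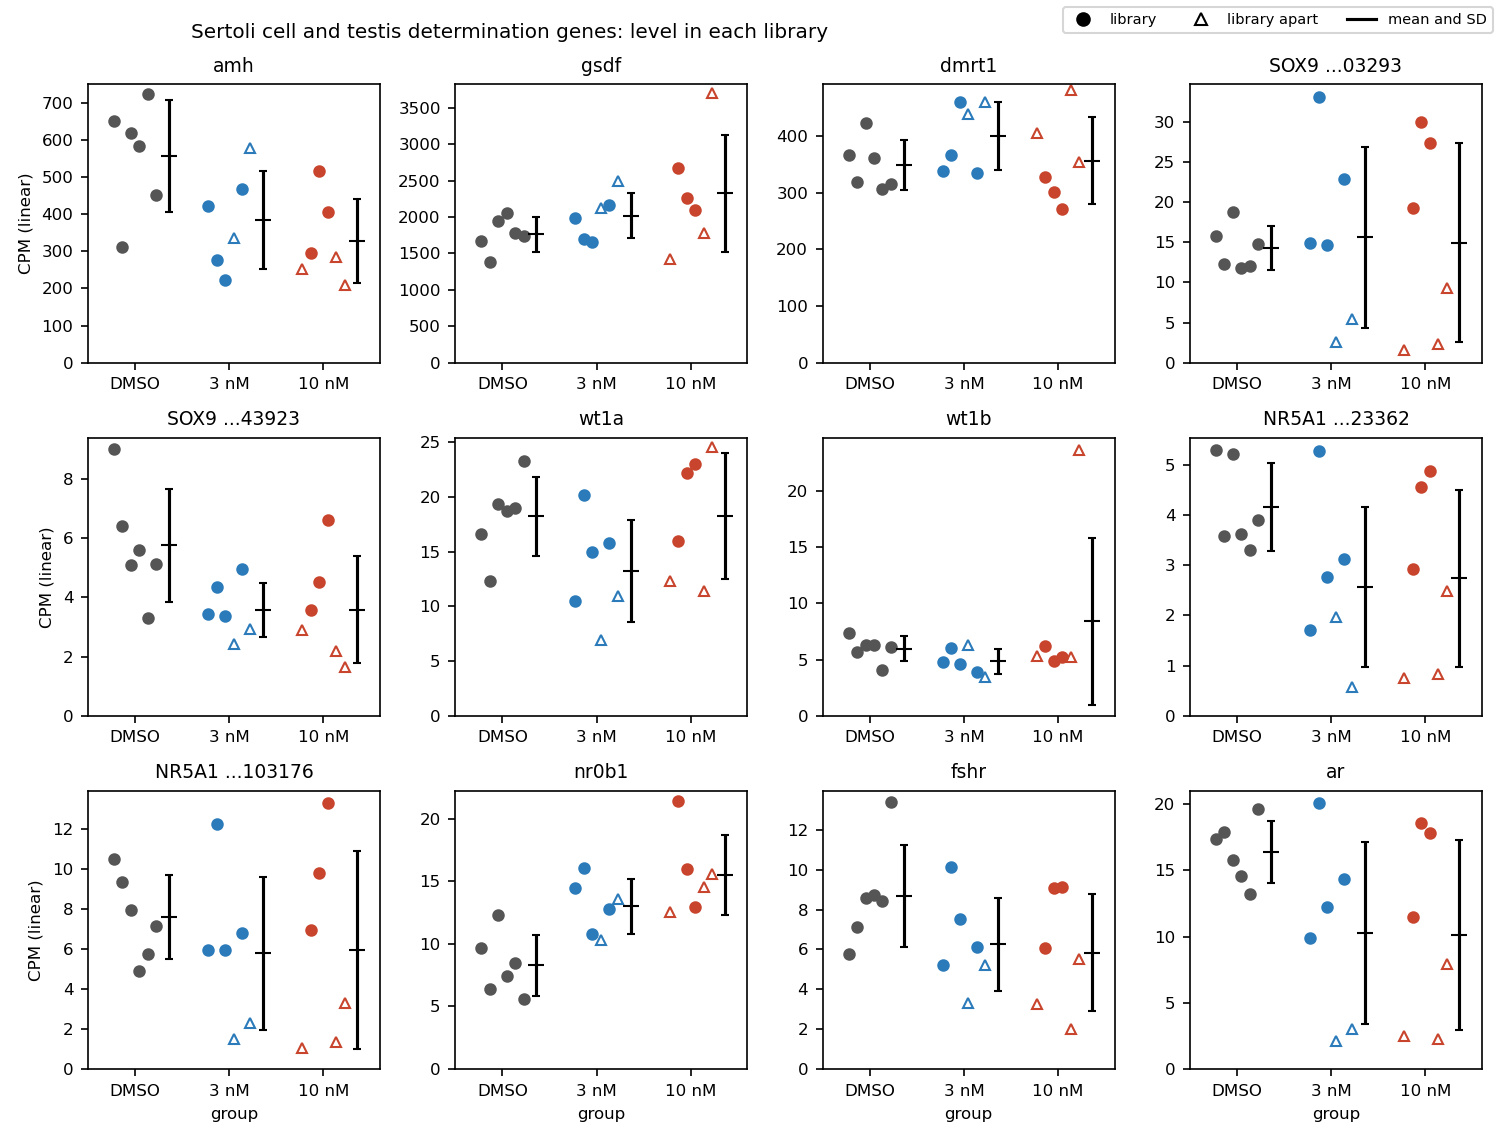
Level of each of the 12 identifiers in every library, in CPM on a linear axis from 0, by group. Filled circles are libraries, open triangles are the 5 libraries that stand apart on principal component 1, and bars are the mean and SD of 6 libraries; nr0b1 at 10 nM lies between 12.5 and 21.4 CPM, above the highest DMSO library at 12.3 CPM.

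nr0b1 encodes DAX1, an orphan nuclear receptor that lacks a DNA-binding domain. Its level in DMSO was 5.58 CPM in the lowest library, 7.92 CPM at the median and 12.3 CPM in the highest. At 3 nM the corresponding values were 10.3, 13.2 and 16.1 CPM, and at 10 nM they were 12.5, 15.0 and 21.4 CPM. All 6 libraries at 10 nM and 4 of 6 at 3 nM were above the DMSO range, so the 10 nM and DMSO groups did not overlap. Groups did not overlap for 6.13% of all tested genes. The mean went from 8.30 ± 2.45 CPM in DMSO to 15.5 ± 3.22 CPM at 10 nM (SD, n = 6), a fold of 1.87. On the log2 scale nr0b1 rose by 0.90 ± 0.19 (SE), with a 95% interval of 0.50 to 1.30 and an adjusted p of 0.0109 in edgeR's test.

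The rise of nr0b1 did not rest on the 5 libraries apart: without them its log2 fold change at 10 nM was 1.01 ± 0.22 (SE, adjusted p = 0.0362, 3 against 6 libraries), in a comparison where 1.9% of genes were called. At 3 nM the log2 fold change was 0.65 ± 0.19 (SE), with a 95% interval of 0.25 to 1.05 and an adjusted p of 0.185, so the lower concentration did not pass the test. The direct difference between 10 nM and 3 nM was 0.25 ± 0.19 (SE, 95% interval -0.14 to 0.65, adjusted p = 0.695). These values do not show a difference between the concentrations, and the interval leaves room for a difference of up to 0.65.

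NR5A1, or steroidogenic factor 1, is the nuclear receptor that NR0B1 represses, and it is known for activating steroid-producing enzymes. NR5A1 ENSDARG00000103176 had 4.89, 7.55 and 10.5 CPM (lowest, median and highest) in DMSO, 1.49, 5.92 and 12.2 CPM at 3 nM, and 1.07, 5.11 and 13.3 CPM at 10 nM. NR5A1 ENSDARG00000023362 had 3.29, 3.76 and 5.30 CPM in DMSO, 0.577, 2.36 and 5.27 CPM at 3 nM, and 0.749, 2.71 and 4.88 CPM at 10 nM. The exposed groups spread wider than DMSO around medians that were lower, and all groups overlapped. At 10 nM the log2 fold changes were -0.34 ± 0.54 (SE, adjusted p = 0.670) and -0.58 ± 0.46 (SE, adjusted p = 0.373), neither past the test. Without the 5 libraries apart the former turned to 0.39 (adjusted p = 0.486) and the latter was -0.02 (adjusted p = 0.982). The smallest counts behind these levels were 20 and 13 reads in a library, so the low levels carry counting error of their own. The sources used here do not state how reads shared by similar or overlapping genes were counted, so with 50-base reads the split between the members of the NR5A1, SOX9 and wt1 pairs is uncertain.

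Of the ligands, amh was lower after exposure and gsdf, a fish gonad ligand of the same TGF-beta family, was slightly higher. The level of amh in DMSO was 311, 600.4 and 723 CPM (lowest, median and highest), against 222, 379.8 and 579 CPM at 3 nM and 209, 290.2 and 517 CPM at 10 nM. Of the 6 libraries at 10 nM, 4 lay below the DMSO range and the other two within it. The group means were 556 ± 150.1 CPM (DMSO) and 327 ± 114 CPM (10 nM; SD, n = 6). The log2 fold change at 10 nM was -0.77 ± 0.26 (SE), with a 95% interval of -1.30 to -0.23 and an adjusted p of 0.0593, just outside the threshold. DESeq2 gave -0.79 with an adjusted p of 0.0242, and edgeR called amh without 10 nM replicate 3 (-0.95, adjusted p = 0.0244) and without 10 nM replicate 4 (-0.84, adjusted p = 0.0472). Those replicates had the highest amh levels at 10 nM, 517 and 406 CPM. Leaving either out lowers the value by construction, so these calls are not support for a fall. Over all alternatives the adjusted p of amh ran from 0.0242 to 0.399, the highest being without the 5 libraries apart, where the log2 fold change was -0.47 ± 0.29 (SE). At 3 nM the log2 fold change of amh was -0.53 ± 0.26 (SE, 95% interval -1.07 to 0.00, adjusted p = 0.352), and -0.68 ± 0.26 (SE, adjusted p = 0.365) without the libraries apart.

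gsdf had 1379, 1761 and 2058 CPM (lowest, median and highest) in DMSO, 1661, 2050.3 and 2495 CPM at 3 nM, and 1420, 2177 and 3703 CPM at 10 nM. In 4 of 6 libraries at 10 nM the level was above the DMSO range, and in the other two it was within it. The log2 fold change at 10 nM was 0.40 ± 0.19 (SE, 95% interval 0.00 to 0.80, adjusted p = 0.151), and without the 5 libraries apart it was again 0.40 with a narrower SE of 0.13 (adjusted p = 0.120). At 3 nM it was 0.20 ± 0.19 (SE, adjusted p = 0.603).

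The ratio of amh to gsdf within a library does not depend on how libraries are scaled, and it fell at both concentrations. It was chosen for testing with earlier results of these data known, and it pairs a member that was lower with one that was higher. Its p-values are therefore not independent support for either change. On the log2 scale (log2 CPM with a prior count of 2) the ratio in DMSO was -2.15, -1.74 and -1.30 (lowest, median and highest), with a mean of -1.70 ± 0.33 (SD, n = 6). At 3 nM it was -2.90, -2.42 and -2.11, with a mean of -2.45 ± 0.32, and at 10 nM it was -4.14, -2.57 and -2.13, with a mean of -2.83 ± 0.73 (SD, n = 6 each). The groups overlapped in a narrow band: DMSO replicate 2 at -2.15 lay among the exposed libraries, and the other 5 DMSO libraries lay above every exposed library. The ratio at 10 nM was lower by 1.12 on the log2 scale than in DMSO (exact two-sided permutation test over 924 arrangements, p = 0.00433, adjusted p = 0.0195 over 9 ratio tests). At 3 nM it was lower by 0.75 (exact permutation p = 0.00433, adjusted p = 0.0195), and both comparisons use the same DMSO libraries. The smallest p that 6 against 6 libraries allow is 0.00216. Between 10 nM and 3 nM the ratio differed by -0.37, with an exact permutation p of 0.294 and an adjusted p of 0.883. Without the 5 libraries apart the ratio was lower by 0.85 at 10 nM (exact permutation, adjusted p = 0.0536, 3 against 6 libraries). At 3 nM it was then lower by 0.79 (adjusted p = 0.0429, 4 against 6 libraries). Fewer libraries raise the smallest p the test allows, most at 10 nM, so these p-values do not rank the concentrations. Leaving out single libraries left both comparisons past the threshold, and the 10 nM difference then ran from -1.26 to -0.86. Without 10 nM replicate 6, the library with the lowest ratio, it was -0.86 (exact permutation, adjusted p = 0.0292).

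**Figure D2:**
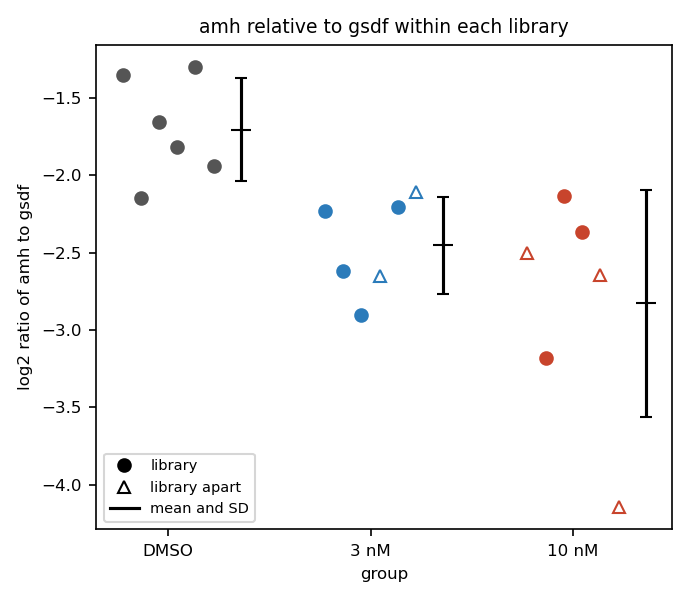
Log2 ratio of amh to gsdf in each library, by group. Filled circles are libraries, open triangles are the 5 libraries apart, and bars are the mean and SD of 6 libraries; 5 of the 6 DMSO libraries lie above every exposed library, and 10 nM replicate 6 is the lowest at -4.14.

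Among the transcription factors, dmrt1, which carries the DM domain and is needed for testis development in zebrafish, was close to its DMSO level after exposure. Its level was 307, 339.8 and 423 CPM (lowest, median and highest) in DMSO, 335, 403 and 460.2 CPM at 3 nM, and 271, 341 and 480.2 CPM at 10 nM. The groups overlapped, with 3 libraries above the DMSO range at 3 nM, and 1 above and 2 below it at 10 nM. The log2 fold change was 0.03 ± 0.14 at 10 nM (SE, 95% interval -0.27 to 0.33, adjusted p = 0.890) and 0.20 ± 0.14 at 3 nM (SE, 95% interval -0.10 to 0.50, adjusted p = 0.497). At 10 nM its direction changed with the setting: the value was -0.00094 with no filter on low counts and -0.23 without the 5 libraries apart.

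SOX9 is the HMG-box factor that acts downstream of the mammalian testis switch SRY. SOX9 ENSDARG00000003293 had 11.8, 13.6 and 18.8 CPM (lowest, median and highest) in DMSO, 2.63, 14.8 and 33.1 CPM at 3 nM, and 1.55, 14.3 and 30.0 CPM at 10 nM. Its group medians were close while its spread was not, with a coefficient of variation of 19.3% in DMSO, 72.0% at 3 nM and 82.8% at 10 nM. The level was above the DMSO range in 3 libraries at 10 nM and below it in the other 3, and the log2 fold change over all 6 was 0.08 ± 0.60 (SE, adjusted p = 0.939). All 5 libraries apart lay below the DMSO range, at 1.55 to 9.35 CPM. Of the other 7 exposed libraries, 5 lay above that range, and the 7 ran from 14.7 to 33.1 CPM. Without the libraries apart the log2 fold change at 10 nM was 0.83 ± 0.24 (SE, edgeR, adjusted p = 0.0789, unadjusted p = 0.00344). Those libraries held every exposed value below the DMSO range, so leaving them out raises the value and its p-values are not support for a rise.

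SOX9 ENSDARG00000043923 had 3.29, 5.36 and 9.03 CPM (lowest, median and highest) in DMSO, 2.43, 3.40 and 4.96 CPM at 3 nM, and 1.66, 3.24 and 6.63 CPM at 10 nM. Its median was lower at both concentrations, with overlap. The log2 fold change was -0.68 ± 0.30 at 10 nM (SE, adjusted p = 0.132) and -0.69 ± 0.30 at 3 nM (SE, adjusted p = 0.325), and leaving out 10 nM replicate 4 alone brought the former past the threshold (-0.95, adjusted p = 0.0395). That replicate held the highest level at 10 nM, 6.63 CPM, so leaving it out lowers the value by construction. Without the 5 libraries apart the values were -0.24 at 10 nM (adjusted p = 0.680) and -0.52 at 3 nM (adjusted p = 0.479), so the 10 nM value was much smaller. Within-library ratios of the SOX9 pair differed from DMSO by 0.13 at 10 nM (exact permutation p = 0.844, adjusted p = 0.898) and by 0.38 at 3 nM (exact permutation p = 0.435, adjusted p = 0.886). Without the libraries apart the ratio of ENSDARG00000003293 to ENSDARG00000043923 was higher than in DMSO by 0.99 at 3 nM (exact permutation, adjusted p = 0.0429, 4 against 6 libraries). At 10 nM it was then higher by 1.04 (adjusted p = 0.0536, 3 against 6 libraries). The libraries left out at 3 nM held the lowest ratios of that group, 0.11 and 0.89. Those left out at 10 nM had -0.86, 0.080 and 2.44. That set was chosen with earlier results of these data known, so these p-values are not support for a higher ratio.

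The zinc-finger factors wt1a and wt1b are copies of WT1, which is known for forming the early gonad and kidney. wt1a had 12.3, 18.8 and 23.3 CPM (lowest, median and highest) in DMSO, 6.95, 13.0 and 20.1 CPM at 3 nM, and 11.4, 19.0 and 24.5 CPM at 10 nM. Its log2 fold change was 0.00 ± 0.24 at 10 nM (SE, 95% interval -0.51 to 0.51, adjusted p = 0.994) and -0.46 ± 0.24 at 3 nM (SE, adjusted p = 0.388). The sign of the 10 nM value, which is near 0, changed under other scaling. wt1b had 4.05, 6.20 and 7.37 CPM (lowest, median and highest) in DMSO, 3.42, 4.72 and 6.28 CPM at 3 nM, and 4.83, 5.26 and 23.6 CPM at 10 nM. A single library, 10 nM replicate 6, held the 23.6 CPM, and the other 5 at 10 nM lay at most at 6.20 CPM. With that library the log2 fold change of wt1b at 10 nM was 0.49 ± 0.35 (SE, adjusted p = 0.324), and without it the value was -0.16. The same library gave the highest gsdf and wt1a levels at 10 nM and the lowest amh level. The ratio of wt1a to wt1b differed from DMSO by -0.25 at 10 nM (exact permutation p = 0.522, adjusted p = 0.886) and by -0.21 at 3 nM (exact permutation p = 0.591, adjusted p = 0.886).

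The FSH receptor and androgen receptor genes were lower in some exposed libraries, and neither passed the test. fshr, the FSH receptor, had 5.79, 8.51 and 13.4 CPM (lowest, median and highest) in DMSO, 3.30, 5.67 and 10.1 CPM at 3 nM, and 2.003, 5.78 and 9.12 CPM at 10 nM. Its level was below the DMSO range in 3 of 6 libraries at each concentration. The log2 fold change was -0.56 ± 0.33 at 10 nM (SE, 95% interval -1.26 to 0.13, adjusted p = 0.235) and -0.47 ± 0.33 at 3 nM (SE, adjusted p = 0.487). Without the 5 libraries apart these values were -0.11 (adjusted p = 0.853) and -0.26 (adjusted p = 0.707).

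The androgen receptor gene ar had 13.2, 16.6 and 19.6 CPM (lowest, median and highest) in DMSO, 2.12, 11.1 and 20.1 CPM at 3 nM, and 2.26, 9.71 and 18.6 CPM at 10 nM. It was below the DMSO range in 4 of 6 libraries at each concentration. DMSO libraries had a coefficient of variation of 14.2%, against 66.8% (3 nM) and 71.0% (10 nM). Its log2 fold change was -0.69 ± 0.52 at 10 nM (SE, 95% interval -1.77 to 0.39, adjusted p = 0.349) and -0.67 ± 0.51 at 3 nM (SE, adjusted p = 0.519). Without the libraries apart these values were -0.05 ± 0.21 and -0.22 ± 0.19 (SE, adjusted p = 0.920 and 0.695 in edgeR's test).

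**Figure D3:**
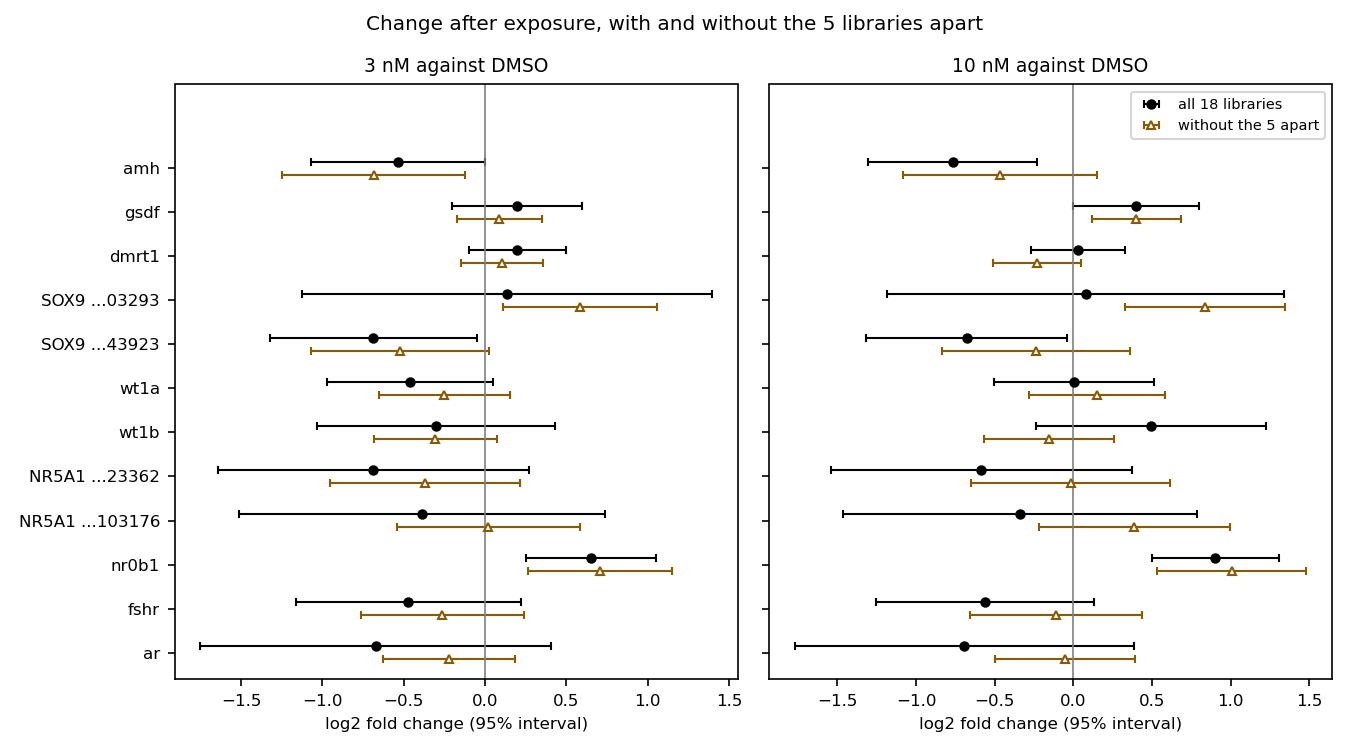
Log2 fold change against DMSO of each of the 12 identifiers at 3 nM and at 10 nM, with 95% intervals. Black circles use all 18 libraries and brown triangles leave out the 5 libraries apart; nr0b1 at 10 nM is called in both, at 0.90 and 1.01, while the interval of ar at 10 nM narrows from -1.77 to 0.39 to -0.50 to 0.39.

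At 3 nM, 0 of the 12 identifiers passed edgeR's test and 0 passed DESeq2's, while 0.208% of all tested genes were called by edgeR. At an unadjusted p under 0.05 in edgeR's test there were 2 of the 12, nr0b1 and SOX9 ENSDARG00000043923, and 14.2% of all tested genes. The median log2 fold change of the 12 at 3 nM was -0.43, against 0.02 over all tested genes, and 4 of the 12 values were positive. The direct comparison of 10 nM with 3 nM called 0 of the 12 with edgeR and 0 with DESeq2, where 0.129% of tested genes were called by edgeR. At an unadjusted p under 0.05 it gave 1 of the 12, wt1b at 0.79 ± 0.35 (SE, edgeR, adjusted p = 0.372), where 10 nM replicate 6 holds the high value.

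**Figure D4:**
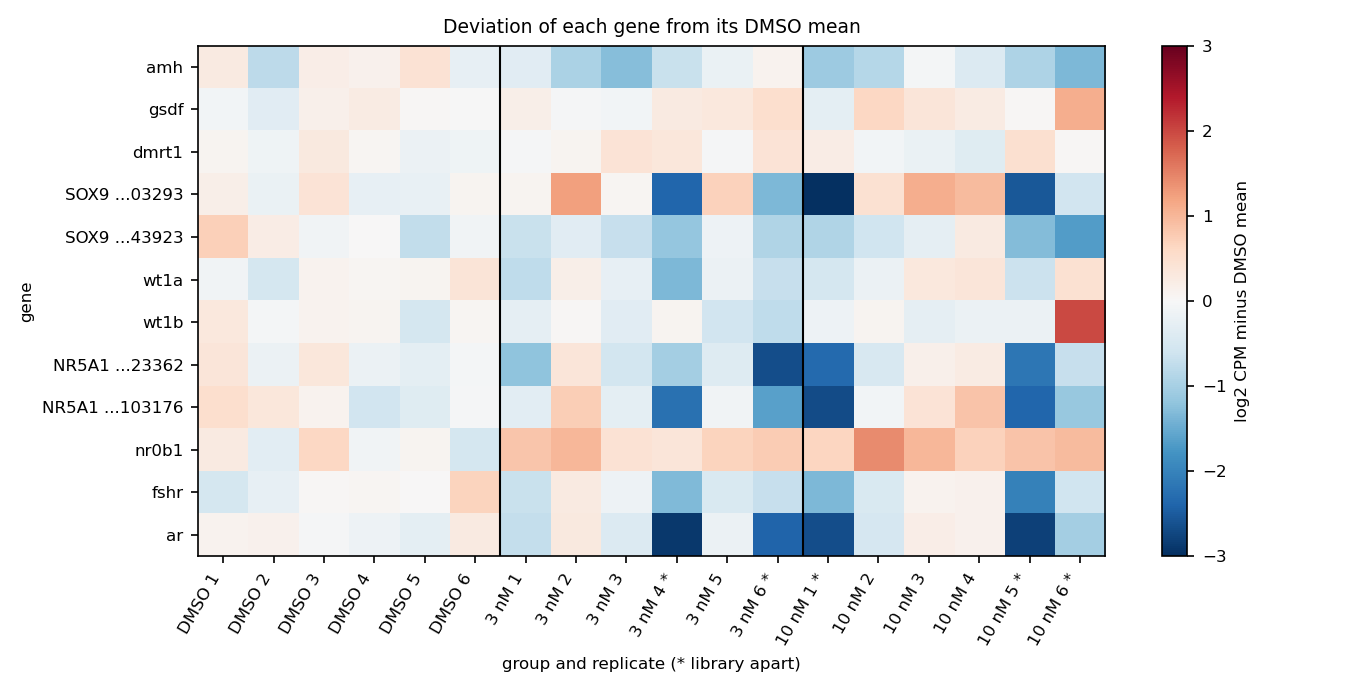
Deviation of each identifier's log2 CPM from its mean over the 6 DMSO libraries, for all 18 libraries, with red higher and blue lower; an asterisk marks a library that stands apart. The rows of SOX9 ENSDARG00000003293, NR5A1 ENSDARG00000103176 and ar are bluest in the 5 marked libraries, and the nr0b1 row is red in all 12 exposed libraries.

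Low values of several genes gathered in the libraries that stood apart. In all 5 of those libraries SOX9 ENSDARG00000003293, SOX9 ENSDARG00000043923, both NR5A1 identifiers, fshr and ar were below their DMSO range. Among the other 7 exposed libraries NR5A1 ENSDARG00000023362 was also below that range in 4, ar in 3 and fshr in 1, and the other 3 identifiers in 0. ar was 2.12 to 7.95 CPM in the 5, 9.89 to 20.1 CPM in the other 7 exposed libraries and 13.2 to 19.6 CPM in DMSO. NR5A1 ENSDARG00000103176 was 1.07 to 3.28 CPM in the 5 and 5.92 to 13.3 CPM in the 7, without overlap. fshr was 2.003 to 5.50 CPM in the 5 and 5.22 to 10.1 CPM in the 7. These are descriptions with no test, because the component that set the libraries apart was computed from all tested genes, these included. The share of all tested genes that lay below their DMSO range in all 5 was not computed. The pattern is therefore not shown to be particular to these identifiers. The part of the mitochondrial share or of leukocyte RNA in these low values was not tested.

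dmrt1 had a higher median in the libraries apart, 439 CPM in a range of 354 to 480.2 CPM, than in the other 7, 335 CPM in an overlapping range of 271 to 460.2 CPM. It was above the DMSO range in 3 of the 5, and in the 7 it was above in 1 and below in 2. For amh and nr0b1 the sets overlapped widely: amh was 209 to 579 CPM in the 5 and 222 to 517 CPM in the 7, and nr0b1 was 10.3 to 15.6 CPM and 10.8 to 21.4 CPM. Both sets of exposed libraries therefore held low amh and high nr0b1 values, with 4 of the 5 and 6 of the 7 above the DMSO range of nr0b1, and 3 of each below that of amh.

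Among the 13 libraries not apart, after each group's mean was subtracted, SOX9 ENSDARG00000003293, both NR5A1 identifiers and ar varied together. The 6 pairs among these 4 had Pearson's r of 0.74 to 0.90 over 13 libraries, against a median of 0.20 over all 66 pairs of the 12. The 4 were singled out after their values were seen, and the libraries share scaling and tissue composition, so this is a description only. wt1a and fshr had r = 0.83, amh and gsdf had r = 0.55, and gsdf and NR5A1 ENSDARG00000103176 had r = -0.63 over the same 13 libraries.

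By the same measure, the genes most like amh among 19010 compared were INO80B (r = 0.89), sar1ab (0.88), SKAP2 (0.84), sult1st1 (0.83) and si:dkey-239i20.4 (0.82). Those most like gsdf were apom (r = 0.90), si:ch211-155i14.1 (0.86), cpped1 (0.85), TMEM230 (0.85) and atox1 (0.84). With 13 libraries and so many genes, values this high are the top of a long list and carry no test.

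**Figure D5:**
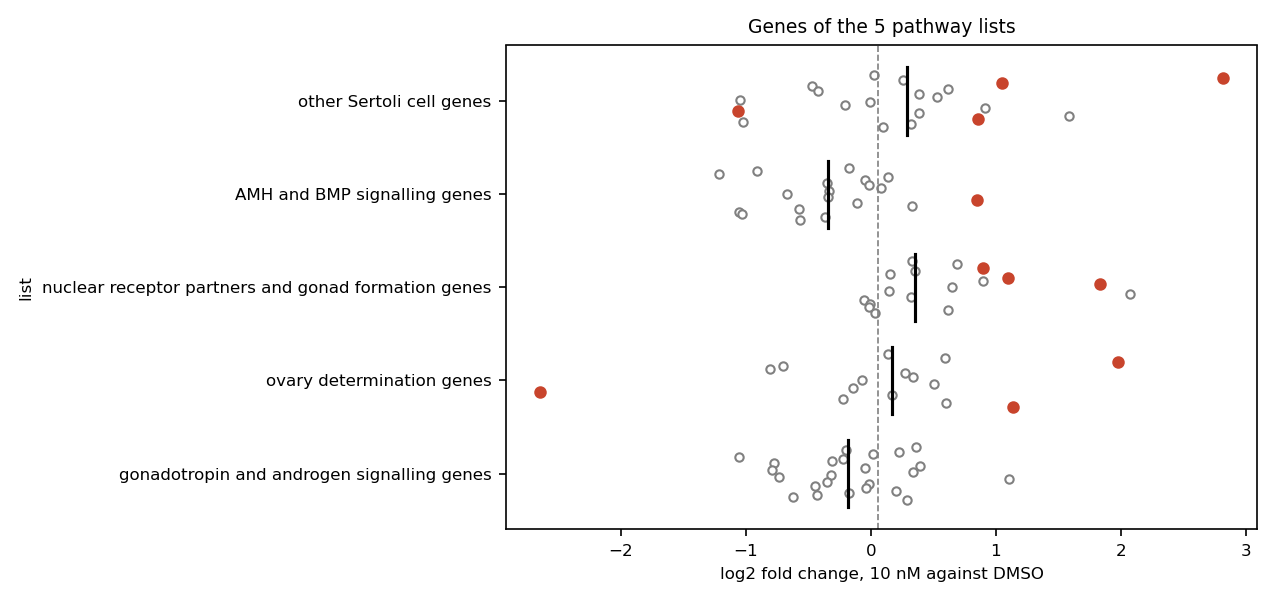
Log2 fold change at 10 nM against DMSO of each tested gene in the 5 pathway lists. Filled red points passed the test at an adjusted p under 0.05, open points did not, short black lines are list medians (from -0.34 for AMH and BMP signalling genes to 0.36 for nuclear receptor partners and gonad formation genes), and the dashed line is the median of all tested genes at 0.06.

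Other Sertoli cell genes moved in both directions at 10 nM. Of 20 tested, 3 rose and 1 fell, where 10.8% of all tested genes were called. On the log2 scale their median difference was 0.29, against 0.06 over all tested genes. inha, the inhibin alpha subunit, went from 58.8, 66.1 and 76.9 CPM (lowest, median and highest) in DMSO to 12.3, 31.1 and 53.2 CPM at 10 nM, with no overlap, as for 6.13% of all tested genes. On the log2 scale it fell by 1.06 with an SE of 0.32 (edgeR, adjusted p = 0.0417), and without the libraries apart the value was -0.51 (adjusted p = 0.0689). kitlga, a ligand for the KIT receptor of germ cells, rose by 0.86 ± 0.23 (SE, adjusted p = 0.0292), and the keratin gene krt18a.1 rose by 1.05 ± 0.24 (SE, adjusted p = 0.0146). CLU (ENSDARG00000010434), which encodes the secreted chaperone clusterin, rose by 2.82 ± 0.60 (SE, adjusted p = 0.0112). Its 3 highest libraries were replicates 1, 5 and 6 at 10 nM, at 161, 71.3 and 40.3 CPM, and its highest DMSO library had 11.2 CPM. Without the libraries apart kitlga (0.50), krt18a.1 (0.70) and CLU (1.16) no longer passed the test, with adjusted p-values of 0.176, 0.101 and 0.162 from edgeR. In that comparison, where 1.9% of all genes were called, igf3, a fish gonadal insulin-like growth factor, was called higher (2.34 ± 0.54, SE, adjusted p = 0.0461), as was GATA6 (0.66 ± 0.14, SE, adjusted p = 0.0327). igf3 was 9.32 to 13.3 CPM in the 3 libraries at 10 nM that were not apart and 0.840 to 2.99 CPM in the 3 that were, against 0.567 to 4.29 CPM in DMSO. GATA6 was 18.5 to 23.6 CPM in the 3 not apart and 8.61, 8.72 and 18.1 CPM in the 3 that were. Its DMSO range was 11.4 to 16.1 CPM. The libraries left out held the lower 10 nM levels of igf3 and GATA6, so leaving them out raises both values. The p-values of igf3 and GATA6 in that comparison are therefore not support for a rise.

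Genes of the receptors and mediators of AMH and bone morphogenetic protein (BMP) signals, which pass through SMAD proteins to targets such as the ID genes, had a median log2 fold change of -0.34. Of 19 tested, 1 rose and 0 fell in edgeR's test, 8 were lower and 1 higher at an unadjusted p under 0.05, and DESeq2 called 6 lower and 1 higher. Over all tested genes edgeR called 10.8%, and 33.0% were under that unadjusted p. DESeq2 called more genes in all than edgeR did, so its counts are not to be read against these shares. The gene that rose was ID4 (0.85 ± 0.26, SE, adjusted p = 0.0425), an inhibitor of DNA-binding factors, which was no longer called without the libraries apart (0.63, adjusted p = 0.165). ID1, another of that family, had a value of -0.67 ± 0.49 (SE, adjusted p = 0.346), and without the libraries apart it was -2.06 (SE 0.45, adjusted p = 0.0401). The 10 nM libraries left out had 50.2, 86.2 and 102 CPM of ID1, within its DMSO range of 30.6 to 124 CPM. Those kept had 17.2 to 20.1 CPM, so leaving the others out lowers the value. The p-value of that comparison is therefore not support for a fall of ID1. The summed level of this list's 20 identifiers was 526 to 661 CPM in DMSO, 441 to 508 CPM at 3 nM and 412 to 579.8 CPM at 10 nM.

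Of 17 tested nuclear receptor partners and gonad formation genes, 3 rose and 0 fell at 10 nM, against 10.8% called among all tested genes, with a median log2 fold change of 0.36. The 3 were relatives of dmrt1 with the same DNA-binding domain: DMRT2 (0.90 ± 0.23, SE, adjusted p = 0.0235), DMRT3 (1.101 ± 0.34, SE, adjusted p = 0.0455) and DMRTA2 (1.84 ± 0.36, SE, adjusted p = 0.00697). Their levels were low. DMRTA2 had 0.103 to 0.489 CPM in DMSO and 0.646 to 1.37 CPM at 10 nM, without overlap, as for 6.13% of all tested genes. These levels rest on 3 to 13 reads a library in DMSO and 10 to 31 at 10 nM. With so few DMSO reads it may have passed the filter on low counts only through the exposed libraries. Its call is therefore not firm support for a rise. DMRTA2 was the member of these 3 still called without the libraries apart (2.02 ± 0.41, SE, adjusted p = 0.0271). There DMRT2 was 0.69 (adjusted p = 0.144) and DMRT3 0.58 (adjusted p = 0.370).

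Ovary determination genes, known for opposing the testis programme, had 2 that rose and 1 that fell of 15 tested, with 10.8% of all tested genes called and a median log2 fold change of 0.17. FST (ENSDARG00000057992), or follistatin, which binds activin, went from 30.4, 60.4 and 86.4 CPM (lowest, median and highest) in DMSO to 8.52, 12.7 and 18.8 CPM at 3 nM and 7.17, 9.08 and 13.2 CPM at 10 nM. Every exposed library lay below every DMSO library. The 10 nM and DMSO groups did not overlap for 6.13% of all tested genes. This identifier fell by 2.64 at 10 nM (SE 0.27, adjusted p = 1.73e-05) and by 2.15 at 3 nM (SE 0.26, adjusted p = 0.000413) on the log2 scale. The other FST identifier, ENSDARG00000052846, was not called at either concentration. Without the libraries apart its values were -0.21 at 10 nM and -0.86 at 3 nM (edgeR, adjusted p = 0.665 and 0.165), against -2.78 and -2.37 for ENSDARG00000057992. FST ENSDARG00000057992 was the only gene of the 5 lists called at 3 nM. Between 10 nM and 3 nM 0 were called with edgeR. There 13 of 95 were under an unadjusted p of 0.05, near the 11.8% over all tested genes, and DESeq2 called 2. At an unadjusted p under 0.05 the 3 nM comparison gave 15 of the 95 genes tested in these lists, near the 14.2% over all tested genes, and DESeq2 called 2. In both comparisons DESeq2 called more genes in all than edgeR did, so its counts are not to be read against these shares. RSPO1, an activator of Wnt signals, rose by 1.14 ± 0.25 at 10 nM (SE, adjusted p = 0.0117), and by 0.63 (adjusted p = 0.0168) without the libraries apart. foxl2l, a forkhead gene known in zebrafish from germ cells that turn towards oocytes, rose by 1.98 ± 0.61 (SE, adjusted p = 0.0456), from 0.188 to 1.24 CPM in DMSO to 0.422 to 7.81 CPM at 10 nM. Its groups overlapped, and 7.81 CPM was a single library, 10 nM replicate 4. Without the libraries apart foxl2l was no longer called (2.27, adjusted p = 0.115).

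Genes of gonadotropin and androgen signalling, a list that is not limited to genes downstream of the receptors, had 0 of 24 called at 10 nM with edgeR. At an unadjusted p under 0.05, 2 were higher and 2 lower, and DESeq2 called 1 higher. Among all tested genes edgeR called 10.8% and 33.0% were under that unadjusted p, so the list held fewer of both. DESeq2 called more genes in all than edgeR did, so its count is not to be read against these shares. The median log2 fold change of this list was -0.18 at 10 nM and -0.23 at 3 nM.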

How the data were processed

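Whole testis RNA was sequenced as 50-base single-end reads from stranded total RNA libraries, per the labels' protocols. The deposited values are whole-number counts of reads per gene, not normalised. FastQC, STAR, HTSeq, edgeR and the genome build GRCz10 are listed, per the submitters' processing notes. The sources used here do not state the annotation release or the strand setting of the counting. None of the tables' rows lacked a gene name. Symbols came from a separate table that held a symbol for 27000 of the 35117 identifiers.

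Counts were scaled by TMM, filtered by filterByExpr and tested in 1 quasi-likelihood fit over the 18 libraries (edgeR 4.0.16, R 4.3.3, 15 residual degrees of freedom), with Benjamini-Hochberg adjustment over 24053 genes and a threshold of 0.05. SE is the absolute log2 fold change divided by the square root of F. Intervals are 95%. CPM uses TMM-scaled library totals, and within-library ratios use log2 CPM with a prior count of 2. The fit was tested on simulated data. P-values weigh differences between groups against the spread between these libraries, and whether testes were pooled is not stated. No pair of replicates was so alike that it could be a repeat of 1 library.

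The members, the 5 pathway lists and the 11 lists of cell type markers (212 names, of which 197 matched an identifier) were chosen with earlier results of these data known. So were the tests, the within-library ratios among them, and the set of 5 libraries left out in an alternative. All members are described. Of each pathway list, genes called in a comparison are named, at most 4 a list by smallest p, and genes called without the 5 libraries apart (igf3, GATA6 and ID1) were added after their values were seen. For amh and gsdf the 5 genes with the highest Pearson r are named, taken from the genes that have a symbol and average 1 CPM or more. Alternatives were RLE scaling, DESeq2 1.42.0, no filter on low counts, only the groups compared, a replicate block, a prior count of 0.5, and leaving out single libraries or the 5 apart. The methylation data of the series were not analysed here, and no sequence is printed because no table used here holds one.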

Additional observations from a re-analysis of the deposited data

Results flagged for a closer look

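In the 10 nM group the level of wt1b in replicate 6, at 23.6 CPM, lay far from the other 5 libraries, which ran from 4.83 to 6.20 CPM. On the log2 scale its gap to the nearest library was 0.844 of the group's range, above the 95% critical value of Dixon's test for 6 samples. Of the 45 groups of 6 values examined, 1 was marked in this way, where chance gives about 2.25. The same library had 3703 CPM of gsdf, 24.5 CPM of wt1a and 209 CPM of amh, and it is among the 5 that stood apart on principal component 1. Its summed liver (461 CPM), intestine and other epithelium (1313 CPM), and peritubular and smooth muscle markers (1143 CPM) were the highest of the 18 libraries. DMSO replicate 1 was near it in epithelium and smooth muscle markers, at 1093 and 1081 CPM. The part of other tissue in this library's values was not tested.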

How the results depend on the processing

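nr0b1 at 10 nM was called in every alternative run, with log2 fold changes of 0.79 to 1.04 and adjusted p-values of 0.000453 to 0.0375. At 3 nM it was 0.56 to 0.79 (adjusted p-values of 0.0666 to 0.391) and never called. The causes of the following differences were not tested. Genes called at 10 nM against DMSO went from 2609 to 4585 with DESeq2, 1699 with only both groups, 684 with the replicate block, 468 without the 5 libraries apart, and 826 to 3855 without single libraries, the lower end being without DMSO replicate 2. At 3 nM against DMSO they went from 50 to 317 with DESeq2, 26 with the replicate block and 25 to 55 without single libraries. At 10 nM against 3 nM they went from 31 to 707 with DESeq2 and to 0 with only both groups, with the replicate block and without the 5 libraries (2177, 2205 and 1663 genes at an unadjusted p under 0.05 with edgeR), and ran from 0 to 355 without single libraries. DESeq2 called 2 of the 12 members at 10 nM, and leaving out single libraries gave 1 to 3.

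Replicate numbers were shared by the groups, but no pair of groups had every same-numbered correlation of deviations over 0.1: these were -0.115 to 0.242 for 10 nM and DMSO, -0.110 to 0.174 for 3 nM and DMSO, and -0.486 to 0.338 for both concentrations. Of the 6 pairs in each, 1, 3 and 2 were over 0.1 in that order. Libraries were taken to share only a number, but a rule that needs all 6 pairs cannot exclude a batch shared by some. Paired by number (replicate block, exact sign-flip permutation), the ratio of amh to gsdf differed from DMSO by -1.12 at 10 nM and -0.75 at 3 nM, with an adjusted p of 0.141 for each. All 6 pairs were lower in both comparisons, and the unadjusted p of 0.0312 is the smallest that 6 pairs allow, so this p does not show a weaker effect. Without the 5 libraries apart the difference in the amh to gsdf ratio was -0.85 at 10 nM (exact permutation, adjusted p = 0.0536, 3 against 6 libraries). The SOX9 ratio at 3 nM was then higher than in DMSO by 0.99 (exact permutation, adjusted p = 0.0429, 4 against 6 libraries). The libraries left out at 3 nM held the lowest SOX9 ratios of that group, so this p-value is not support for a higher ratio. Without the 5 libraries the wt1 ratio reversed, to 0.29 at 10 nM, 0.037 at 3 nM and 0.26 between concentrations, and the SOX9 ratio between concentrations to 0.058. Without single libraries the SOX9 ratio ran from -0.12 to 0.59 (10 nM) and -0.57 to 0.22 (between concentrations), and the wt1 ratio from -0.42 to 0.0024 (10 nM), -0.33 to 0.043 (3 nM) and -0.30 to 0.21 (between concentrations).

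Member log2 fold changes that changed sign were not called. For wt1a at 10 nM they were -0.018 (RLE), -0.023 (DESeq2), -0.019 (no filter) and -0.021 (replicate block), and for SOX9 ENSDARG00000043923 between concentrations -0.0058, -0.0045, -0.00041 and -0.088 in that order. dmrt1 at 10 nM was -0.00094 with no filter. With the replicate block SOX9 ENSDARG00000003293 at 10 nM was -0.19 and NR5A1 ENSDARG00000103176 between concentrations -0.040. Without the 5 libraries, 10 nM values were -0.23 for dmrt1, -0.15 for wt1b and 0.39 for NR5A1 ENSDARG00000103176 (0.018 at 3 nM), and values between concentrations were 0.22 for amh, 0.15 for fshr, 0.17 for ar and 0.25 for SOX9 ENSDARG00000003293. Without single libraries, 10 nM ranges that crossed 0 were -0.10 to 0.10 (wt1a), -0.081 to 0.093 (dmrt1), -0.24 to 0.31 (SOX9 ENSDARG00000003293; -0.23 to 0.36 at 3 nM) and -0.16 to 0.59 (wt1b). Between concentrations they were -0.27 to 0.10 (fshr), -0.29 to 0.29 (ar), -0.38 to 0.32 (SOX9 ENSDARG00000003293), -0.27 to 0.15 (SOX9 ENSDARG00000043923), -0.36 to 0.42 (NR5A1 ENSDARG00000103176) and -0.14 to 0.45 (NR5A1 ENSDARG00000023362). Depth limits the low NR5A1 levels, with as few as 13 reads in a library.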
